A study of Gallus gallus with 8 samples.

Results

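The complement and coagulation genes are a set of 53 genes, taken by symbol from a written list of complement components, their regulators and receptors, clotting factors, anticoagulants and the plasmin system. Of the 53 symbols, 50 had a row among the 24154 genes of the count table, and *C9*, *CLU* and *PLAUR* were not analysed here. A filter on low counts left 35 of the 50 for testing, among 13639 tested genes, and the other 15 are given by their summed counts. The set was measured in intervertebral discs (IVDs) of the chicken tail, in 4 libraries of discs from the fusing pygostyle, which the labels call degrading pygostyle IVDs, and 4 libraries of free caudal discs, which the labels call permanent IVDs. All discs came from chickens aged 10 weeks, an age at which the pygostyle, the fused end of the bird tail, is still forming, and the comparison asks how discs that are being lost differ in their RNA from discs that persist. The labels name the breed white leghorn, while the study's methods name Tetra chickens. The methods speak of 8 chickens for the 8 libraries. The bracketed codes in the sample titles repeat the numbers 12, 10 and 8 across the tissues, pairing fusing replicates 1, 3 and 4 with free replicates 1, 2 and 4 and leaving fusing replicate 2 and free replicate 3 alone, and the labels do not say what the codes mean. Each library stands for dissected whole disc tissue, so fewer cells of a type and less RNA per cell cannot be told apart.

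Complement is a cascade of plasma and cell-surface proteins. C1q bound to antibody or debris activates the proteases C1r and C1s, C3 is then cleaved and tags the surface, and the late components build a pore in the membrane. Coagulation is another protease cascade, started when tissue factor meets factor VII and ending in fibrin, which plasmin later dissolves. The liver makes most of these proteins in vertebrates, but C1q comes mainly from macrophages, von Willebrand factor from endothelial cells and thrombocytes, and many of the inhibitors are also made by connective tissue cells.

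The 8 libraries held 5682402 to 18434459 counted reads, with the lowest and the highest total both among the fusing discs. Between groups the marker lists of several cell types differed. Of the macrophage markers 9 of 11 tested were called higher in fusing discs, with summed levels of 419.9 to 911.9 CPM (reads of a gene scaled to a common library size) in fusing libraries and 77.4 to 120.3 CPM in free libraries. The heterophil (avian granulocyte) markers were called higher in 8 of 8, with sums of 407.6 to 1855 CPM in fusing and 30.0 to 161.4 CPM in free libraries, and 4 of 7 thrombocyte markers were called higher, at 224 to 723 CPM in fusing and 61.4 to 158.5 CPM in free libraries. Osteoblast and osteocyte markers were called higher in 10 of 12, and the fibrous connective tissue markers of the annulus were called lower in 8 of 10. The sums of the annulus list were 16640 to 21950 CPM in fusing and 82430 to 219600 CPM in free libraries. The fusing sums came mostly from *COL1A1*, at 13887 to 20150 CPM. Among the markers called lower, *DPT* averaged 1.12 CPM in fusing and 209 CPM in free discs, and *SCX* 1.15 and 23.8 CPM. *THBS4* was called higher and *TNMD* was not called. None of 11 endothelial markers was called. The skeletal muscle sums were uneven within both tissues. They were 1148 CPM in fusing replicate 4 and 5.99 to 17.0 CPM in the other fusing libraries. In free discs they were 23.3 CPM in replicate 3 and 515.3 to 664 CPM in the others. Of 16 hepatocyte markers only 5 passed the filter and 2 were called higher, with sums of 759 to 1144 CPM in fusing and 597 to 1868 CPM in free libraries that came almost wholly from *TF* and *APOA1*. Albumin, called higher, lay at only 0.685 to 1.62 CPM in fusing and 0.362 to 0.619 CPM in free libraries, and the fatty acid binding gene *FABP1* had no read. The part of these cell types in the results below was not tested. The W-linked transcript *HINTW* was present in fusing replicate 1 and free replicates 1 and 3, with 4879 to 6392 reads, and reached at most 17 reads in the other libraries.

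A gene was called where its Benjamini-Hochberg adjusted p-value in edgeR's quasi-likelihood test was under 0.05 and its level differed by more than 2-fold. Of the 35 tested members 18 were called, against 22.8% of all tested genes. Of the same 35, 12 were higher in fusing discs (34.3%), against 13.2% of all tested genes, and 6 were lower (17.1%), against 9.64% of all tested genes. The median log2 fold change of the 35, fusing over free, was 0.60, and that of all tested genes was 0.013. The members ranged from −4.29 for *VTN* to 4.88 for *F7*. The 4 fusing libraries all lay above the 4 free libraries in 13 of the 35 members, against 19.6% of all tested genes. They all lay below them in 5 of the 35, against 20.2% of all tested genes. *C5AR1*, *F7* and *PLG* reached the filter's level in no free library, so for them passing the filter already required a difference. Scaling to library totals alone, which raised the median log2 fold change of all genes by 0.69, gave 20 members called higher and 2 lower. The added higher calls were *CFD*, *CFI*, *CSMD2*, *F13A1*, *PLAU*, *PROS1*, *SERPIND1* and *TFPI2*, and the values below are relative to the trimmed-mean scaling that sets that median near 0.

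**Figure D1:**
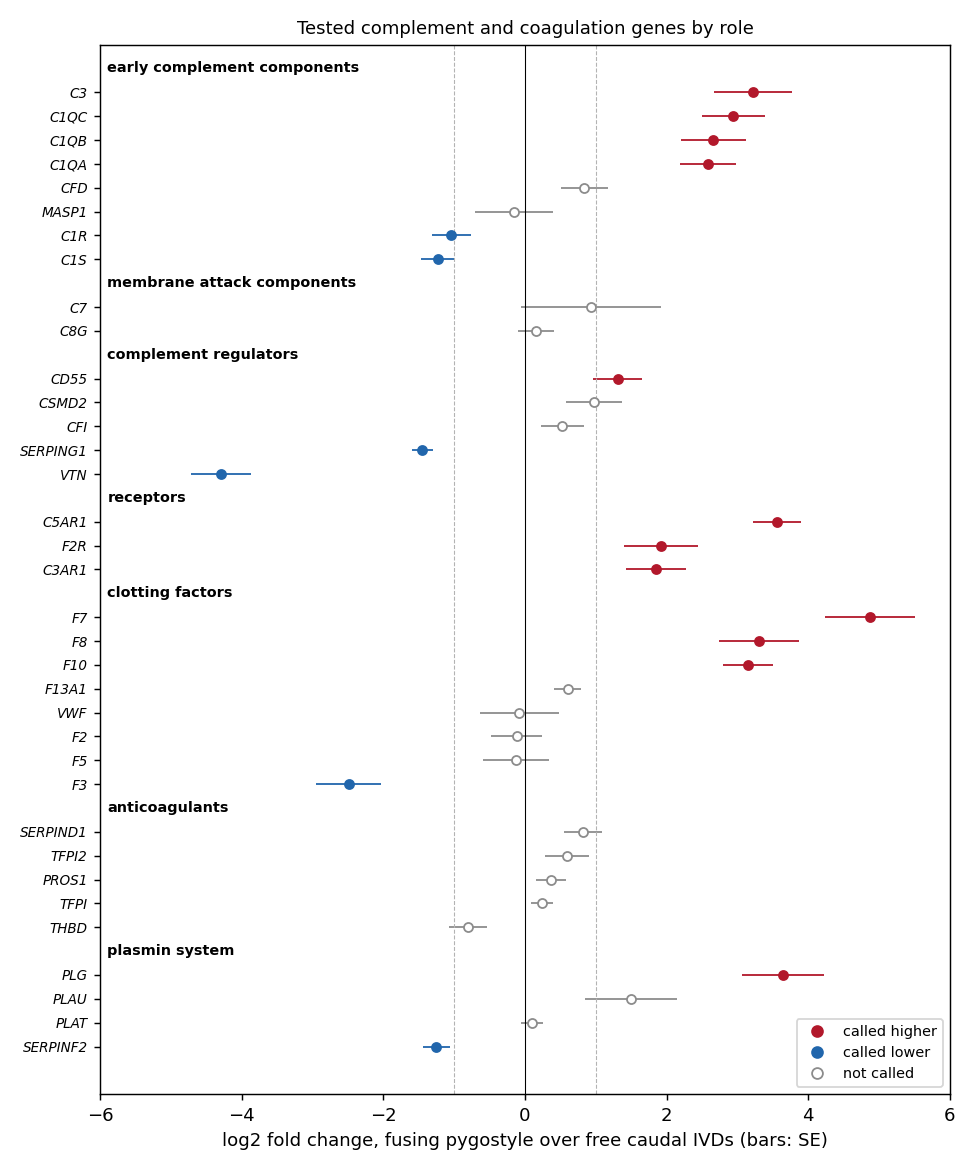
The 35 tested complement and coagulation genes are plotted by role, with the log2 fold change (fusing pygostyle over free caudal IVDs) on the horizontal axis, bars of 1 SE and dashed lines at 2-fold. Called members lie on both sides of 0 within the early components, the regulators, the clotting factors and the plasmin system. The 3 receptors all lie above 1, though *C5AR1* reached the filter's level in no free library. None of the 5 tested anticoagulants was called. Of all tested genes 13.2% were called higher and 9.64% lower.

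RNAs for the recognition protein of the classical pathway and for its proteases moved in opposite directions. *C1QA*, *C1QB* and *C1QC* encode the chains that assemble into C1q. *C1QA* had 15.7, 23.7, 8.98 and 19.6 CPM in fusing replicates 1 to 4 and 1.36, 2.98, 4.24 and 2.79 CPM in free replicates 1 to 4. *C1QB* had 10.6, 23.9, 6.32 and 16.6 CPM in fusing libraries and 1.49, 1.81, 3.8 and 1.93 CPM in free libraries. *C1QC* had 12.4, 24.4, 8.68 and 18 CPM in fusing libraries and 1.03, 2.26, 3.54 and 1.40 CPM in free libraries. For all of the C1q chains fusing replicate 2 was the highest library and fusing replicate 3 the lowest fusing library, free replicate 3 was the highest free library, and the groups did not overlap. Their log2 fold changes were 2.59 for *C1QA* (SE 0.39, adjusted p = 0.000960 by edgeR), 2.66 for *C1QB* (SE 0.46, adjusted p = 0.00182 by edgeR) and 2.95 for *C1QC* (SE 0.44, adjusted p = 0.000968 by edgeR). Per kilobase of exon the chains were at like levels within a tissue, with mean levels of 14.1, 14.3 and 14.2 CPM per kb for *C1QA*, *C1QB* and *C1QC* in fusing discs and 2.36, 2.24 and 1.83 CPM per kb in free discs. They lie side by side on chromosome 21 of GRCg6a, *C1QB* at 6073553 to 6075682, *C1QC* at 6076984 to 6078857 and *C1QA* at 6079354 to 6081317.

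*C1R* and *C1S* encode the proteases that C1q activates, and both were lower in fusing discs. *C1R* had 19.5, 31.8, 49.4 and 25.8 CPM in fusing replicates 1 to 4 and 72.8, 65.5, 45.9 and 75.9 CPM in free replicates 1 to 4. Fusing replicate 3 lay above free replicate 3, and these were the only libraries of the tissues that overlapped. Its log2 fold change was −1.04 (SE 0.28, adjusted p = 0.0157 by edgeR). The call lay near the 2-fold limit and was lost when free replicate 1 (−0.99) or 4 (−0.97), or fusing replicate 1 (−0.88) or 4 (−0.95), was left out. *C1S* had 11.1, 16, 8.83 and 8.99 CPM in fusing libraries and 22.0, 22.2, 27.3 and 33.6 CPM in free libraries, with no overlap, and its log2 fold change was −1.24 (SE 0.23, adjusted p = 0.00257 by edgeR). With library totals these changes were −0.36 for *C1R* and −0.52 for *C1S*, neither of them called. The genes are neighbours on chromosome 1, *C1S* at 78045562 to 78054666 and *C1R* at 78058001 to 78065406.

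A ratio taken inside a library does not depend on the scaling between libraries. The summed C1q chains over *C1R* plus *C1S*, each in CPM per kb, gave 2.99, 3.62, 0.979 and 3.72 in fusing replicates 1 to 4 and 0.0988, 0.190, 0.379 and 0.133 in free replicates 1 to 4. The tissues did not overlap, and in every free library the protease RNAs were the more abundant. This separation follows from the levels. Every C1q chain was higher, and *C1R* plus *C1S* per kb lower, in every fusing library than in any free library. The ratio of *C1R* to *C1S* overlapped, at 1.75 to 5.58 in fusing and 1.68 to 3.30 in free libraries, and the ratios were chosen after the values had been seen.

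*C3*, whose cleavage is the step at which the activation routes of complement meet, had 15.2, 45.3, 18.3 and 11.6 CPM in fusing replicates 1 to 4 and 1.81, 4.16, 2.74 and 0.858 CPM in free replicates 1 to 4. Replicate 2 was the highest library in both tissues, and the lowest fusing library was still above the highest free library. The log2 fold change was 3.22 (SE 0.55, adjusted p = 0.00176 by edgeR). *CFD*, factor D of the alternative pathway, averaged 13.2 ± 5.74 CPM in fusing and 7.33 ± 1.73 CPM in free discs (SD, n = 4 each) and was not called (log2 fold change 0.84, adjusted p = 0.0719 by edgeR), except without fusing replicate 3 (1.04) or with library totals (1.54). *MASP1*, a protease of the lectin pathway, ranged from 3.31 to 6.17 CPM in fusing libraries and from 1.95 to 11.3 CPM in free libraries, with free replicate 4 the highest of all (log2 fold change −0.15, adjusted p = 0.852 by edgeR).

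The early components below the filter were few in reads. *MBL2*, a mannose-binding recognition protein, had 39 reads over the fusing libraries and 4 over the free libraries, a ratio of 7.38 per unit of library size (95% interval 2.66 to 28.4, counting error only). *C5*, the precursor of the C5a signal, had 40 and 5 reads, a ratio of 6.05 (95% interval 2.39 to 19.7). Of its exonic bases 19.6% are shared with *TRAF1*, and the counting left out reads that matched several genes. Without the filter edgeR called both higher, at a log2 fold change of 2.73 for *MBL2* (adjusted p = 0.0194) and 2.48 for *C5* (adjusted p = 0.0225). *MASP2* had 32 reads in fusing and 28 in free libraries, and 40.1% of its exonic bases lie within exons of *TARDBP*.

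Of the late components that build the pore, only *C7* and *C8G* could be tested, and neither was called. *C7* had 57.3, 131.0, 33.8 and 72.9 CPM in fusing replicates 1 to 4 and 9.57, 132.8, 5.04 and 6.97 CPM in free replicates 1 to 4. Free replicate 2 was as high as the highest fusing library, fusing replicate 2, while the other free libraries lay below every fusing library. The log2 fold change was 0.93 (SE 0.99, adjusted p = 0.490 by edgeR). Without free replicate 2 it was 3.33 (adjusted p = 0.00150 by edgeR). With the replicate number as a block, which pairs the high replicate 2 libraries, it was 2.16 (adjusted p = 0.0283 by edgeR). The labels do not link libraries of the same number, and the replicate 3 libraries, which differ in W-linked transcripts, are not from a single bird. With the title codes as the block the log2 fold change was 1.52 (SE 1.25, adjusted p = 0.402 by edgeR) and not called. That block pairs the high free replicate 2 with fusing replicate 3. It leaves fusing replicate 2 and free replicate 3, whose codes have no partner, out of the comparison. *C8G*, a lipocalin-like chain of C8, lay at 2.75 to 3.90 CPM in fusing and 2.04 to 3.49 CPM in free libraries (log2 fold change 0.15, adjusted p = 0.669 by edgeR). The remaining pore genes were almost silent at this depth: *C6* had 8 reads in fusing and 4 in free libraries, *C8B* had 9 and 4, and *C8A* had none. A count of 0 over a group allows up to 0.0481 CPM in fusing and 0.0636 CPM in free discs, at a limit of 3 counts over the 4 libraries.

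Among the regulators the changes ran both ways and included the deepest fall of the set. *VTN* encodes vitronectin, an adhesive matrix and plasma protein that also keeps the pore complex out of membranes. It had 4.10, 5.60, 2.74 and 2.89 CPM in fusing replicates 1 to 4 and 83.6, 121, 35.9 and 52.7 CPM in free replicates 1 to 4. The lowest free library exceeded the highest fusing library several-fold. The log2 fold change was −4.29 (SE 0.42, adjusted p = 0.000146 by edgeR), and the gene lies on chromosome 19 at 5790922 to 5795106. Per kilobase *VTN* ranked 24th among the members in fusing discs, at 2.43 CPM per kb, and 3rd in free discs, at 46.6 CPM per kb.

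*SERPING1* encodes C1 inhibitor, the serpin that inactivates C1r and C1s. It had 58.9, 59.0, 83.3 and 70.9 CPM in fusing replicates 1 to 4 and 188, 161, 185 and 209.8 CPM in free replicates 1 to 4. The groups were far apart relative to their spread, and the log2 fold change was −1.45 (SE 0.15, adjusted p = 0.000198 by edgeR), or −0.77 and no longer past 2-fold with library totals. Exons of *UBE2L6* and *YPEL4* cover 13% of its exonic bases. Per kilobase it was at 31.3 CPM per kb in fusing discs and at 85.4 CPM per kb in free discs, where it was the most abundant member.

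*CD55*, the membrane protein that speeds the decay of C3 convertases, went the other way. It had 60.2, 101, 38.5 and 80.3 CPM in fusing replicates 1 to 4 and 32.4, 40.1, 15.4 and 24.6 CPM in free replicates 1 to 4. Fusing replicate 3 lay just under free replicate 2, and the other fusing libraries lay above every free library. The log2 fold change was 1.31 (SE 0.34, adjusted p = 0.0145 by edgeR). Those overlapping libraries share the title code 10. With the codes as a block the call was lost (0.85, adjusted p = 0.124 by edgeR). That block leaves fusing replicate 2 and free replicate 3, whose codes have no partner, out of the comparison. For *CD55* these were the highest fusing library and the lowest free library. *CSMD2*, a large membrane protein with complement control domains, averaged 12.9 ± 5.75 CPM in fusing and 6.54 ± 2.89 CPM in free discs (SD, n = 4 each), and was not called (log2 fold change 0.97, adjusted p = 0.0756 by edgeR) except without free replicate 3 (1.22), with a term for W-linked transcripts (1.25) or with library totals (1.61). *CFI*, the protease that degrades C3b, was not called either (log2 fold change 0.53, adjusted p = 0.206 by edgeR), except with library totals (1.23). Of the relatives of *CSMD2*, both below the filter, *CSMD1* had 19 reads in fusing and 1 in free libraries, and *CSMD3* had 24 and 8. Of the fusing reads of *CSMD3*, 21 were in replicate 1. Without the filter edgeR called neither *CSMD1* (adjusted p = 0.0594) nor *CSMD3* (adjusted p = 0.545).

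All 3 receptors in the set were called higher in fusing discs, against 13.2% of all tested genes. For 1 of them, *C5AR1*, passing the filter already required a difference, since no free library reached the filter's level. *C5AR1*, the receptor for C5a on myeloid cells, had 8.04, 8.53, 4.42 and 10.8 CPM in fusing replicates 1 to 4 and 0.840, 0.633, 0.530 and 0.644 CPM in free replicates 1 to 4. No free library reached 1 CPM, and the log2 fold change was 3.55 (SE 0.34, adjusted p = 0.000130 by edgeR). *C3AR1*, the receptor for C3a, had 6.69, 6.37, 2.89 and 4.52 CPM in fusing libraries and 0.646, 1.36, 2.30 and 1.40 CPM in free libraries. Its groups came closest in replicate 3 without overlapping (log2 fold change 1.85, SE 0.42, adjusted p = 0.00711 by edgeR). *F2R*, the thrombin receptor PAR1, had 19.2, 20.4, 25.0 and 20.4 CPM in fusing libraries and 2.20, 1.54, 9.37 and 9.55 CPM in free libraries. Free replicates 3 and 4 lay several-fold above free replicates 1 and 2, and all of the fusing libraries lay higher still (log2 fold change 1.92, SE 0.53, adjusted p = 0.0173 by edgeR). *F2R* lies on the Z chromosome, and with a term for W-linked transcripts its log2 fold change was 1.91 (adjusted p = 0.0314 by edgeR).

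**Figure D2:**
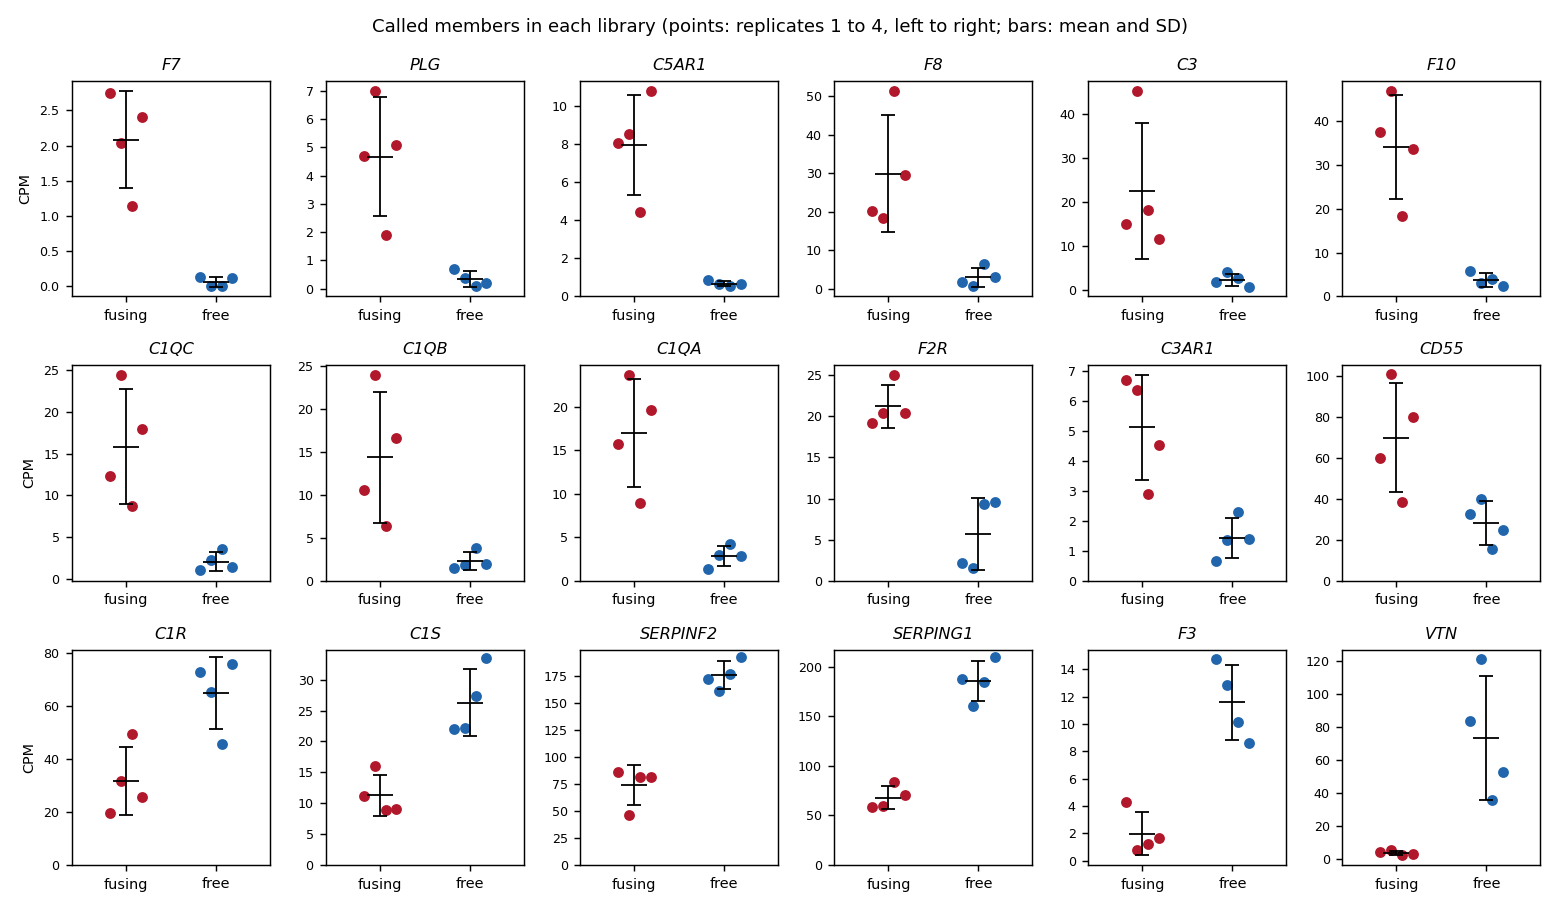
Each panel shows 1 of the 18 called members in CPM, with a point per library (fusing replicates 1 to 4 at left, free replicates 1 to 4 at right) and bars for the mean and SD of 4 libraries. The groups are apart in every panel except *CD55* and *C1R*, where fusing replicate 3 overlaps the free discs. The panels were chosen by calls made on these same libraries, which favours groups that lie apart. Of all tested genes, 19.6% had every fusing library above every free library and 20.2% had every fusing library below.

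Among the clotting factors, RNA for tissue factor was lower in fusing discs while RNA for factors VII, VIII and X was higher. *F3* encodes tissue factor, the membrane protein that starts coagulation on contact with factor VII. It had 4.26, 0.764, 1.22 and 1.67 CPM in fusing replicates 1 to 4 and 14.7, 12.8, 10.2 and 8.58 CPM in free replicates 1 to 4. Fusing replicate 1 was the highest of the fusing libraries and still below every free library. The log2 fold change was −2.49 (SE 0.46, adjusted p = 0.00268 by edgeR), and −3.20 without fusing replicate 1.

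*F10* encodes factor X, the protease that forms the prothrombinase. It had 37.7, 47.0, 18.3 and 33.6 CPM in fusing replicates 1 to 4 and 5.75, 2.98, 4.07 and 2.25 CPM in free replicates 1 to 4, without overlap (log2 fold change 3.15, SE 0.36, adjusted p = 0.000271 by edgeR). *F7*, factor VII, lies next to it on chromosome 1, with *F10* at 138924424 to 138937019 and *F7* at 138939110 to 138948241. It was scarce, with 2.75, 2.04, 1.14 and 2.41 CPM in fusing libraries and 0.129, 0, 0 and 0.107 CPM in free libraries. These stand for 137 reads in the fusing and 3 in the free libraries, a ratio of 34.6 per unit of library size (95% interval 11.6 to 169.6, counting error only). The fitted log2 fold change of *F7* was 4.88 (SE 0.64, adjusted p = 0.000507 by edgeR), and 5.67 without free replicate 1. *PROZ*, which encodes protein Z and lies 12218 bases from *F10*, was not called (log2 fold change 0.34, adjusted p = 0.152 by edgeR).

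*F8* encodes factor VIII, the cofactor that haemophilia A patients lack. It had 20.2, 18.3, 51.4 and 29.5 CPM in fusing replicates 1 to 4 and 1.87, 0.814, 6.45 and 3.00 CPM in free replicates 1 to 4. Replicate 3 was the highest in both tissues and the groups did not overlap (log2 fold change 3.31, SE 0.57, adjusted p = 0.00185 by edgeR, or 3.99 without free replicate 3). *VWF*, which encodes the carrier of factor VIII in plasma, did not follow it. *VWF* had 28.2, 22.2, 21.5 and 24.9 CPM in fusing libraries and 8.60, 7.23, 49.9 and 37.1 CPM in free libraries. The fusing libraries lay between the low free replicates 1 and 2 and the high free replicates 3 and 4, and the log2 fold change was −0.08 (SE 0.55, adjusted p = 0.928 by edgeR), with a sign that changed between settings.

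*F13A1* encodes the catalytic chain of factor XIII, the transglutaminase that cross-links fibrin, and was the most abundant member per kilobase in fusing discs, at 56.5 CPM per kb, against 37.2 CPM per kb in free discs. It had 212, 184, 204 and 134 CPM in fusing replicates 1 to 4 and 115, 148, 93.3 and 127 CPM in free replicates 1 to 4. Fusing replicate 4 lay within the range of the free libraries. The log2 fold change of 0.60 (SE 0.19, adjusted p = 0.0320 by edgeR) stayed under 2-fold, but passed it with library totals (1.32). Neither *F5*, the cofactor of factor X, nor *F2*, prothrombin, was called. Free replicate 2 had 1.54 CPM of *F5*, against 7.94 to 8.04 CPM in the other free libraries.

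The fibrinogen genes gave few reads in either tissue. *FGA* had none in any library, *FGB* had 17 reads in fusing and 21 in free libraries, and *FGG* had 16 and 42. The ratio for *FGG* was 0.288 per unit of library size (95% interval 0.151 to 0.524, counting error only), and without the filter edgeR did not call it (log2 fold change −1.85, adjusted p = 0.185). *F13B*, the carrier chain of factor XIII, had 21 reads in fusing and 5 in free libraries, and *F9*, factor IX, had 0 and 1. Without the filter edgeR called neither *F13B* nor *F9*.

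None of the 5 tested anticoagulants was called in either direction, against 22.8% of all tested genes. So few genes cannot show that the group differs from that share. With library totals *PROS1* (1.05), *TFPI2* (1.32) and *SERPIND1* (1.5) were called higher. *PROS1*, which encodes protein S, had 235, 209, 221 and 184 CPM in fusing replicates 1 to 4 and 146, 106, 207 and 199 CPM in free replicates 1 to 4. The groups overlapped because free replicates 3 and 4 lay above fusing replicate 4 (log2 fold change 0.37, SE 0.21, adjusted p = 0.202 by edgeR). *TFPI2*, a Kunitz inhibitor of the extracellular matrix, had 58.9, 88.5, 42.9 and 92.9 CPM in fusing libraries and 30.8, 61.4, 61.4 and 33.4 CPM in free libraries. Fusing replicate 3 was lower than free replicates 2 and 3, and fusing replicate 1 was too (log2 fold change 0.60, SE 0.31, adjusted p = 0.159 by edgeR). *TFPI*, the inhibitor of the tissue factor pathway, averaged 18.8 ± 2.27 CPM in fusing and 15.96 ± 2.78 CPM in free discs (SD, n = 4 each) (log2 fold change 0.24, adjusted p = 0.261 by edgeR).

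A pair of anticoagulants passed the adjusted p-value but not the 2-fold limit. *SERPIND1*, heparin cofactor II, averaged 3.59 ± 1.07 CPM in fusing and 2.05 ± 0.182 CPM in free discs, and every fusing library lay above every free library (log2 fold change 0.82, adjusted p = 0.0354 by edgeR). *THBD*, thrombomodulin, the endothelial receptor that turns thrombin towards protein C, averaged 8.24 ± 1.68 CPM in fusing and 14.5 ± 5.03 CPM in free discs (SD, n = 4 each; log2 fold change −0.80, adjusted p = 0.0394 by edgeR), and 19.6% of its exonic bases are shared with *SSTR4*. Below the filter, *SERPINC1* (antithrombin) had 33 reads in fusing and 7 in free libraries. Without the filter edgeR did not call *SERPINC1* (adjusted p = 0.0816). *PROC* (protein C) had 28 and 17, with 38.0% of its exonic bases within *DGKD*.

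In the plasmin system RNA for the zymogen plasminogen was higher, and RNA for the main inhibitor of plasmin lower, in fusing discs. *PLG*, plasminogen, had 4.7, 7.0, 1.9 and 5.09 CPM in fusing replicates 1 to 4 and 0.711, 0.362, 0.0884 and 0.215 CPM in free replicates 1 to 4. Its groups did not overlap (log2 fold change 3.64, SE 0.58, adjusted p = 0.00127 by edgeR, or 4.33 without free replicate 1). *SERPINF2*, which encodes alpha-2-antiplasmin, had 86.3, 46.2, 81.4 and 81.3 CPM in fusing libraries and 172, 161, 178 and 192 CPM in free libraries. Fusing replicate 2 was the lowest, and the free libraries were close together (log2 fold change −1.25, SE 0.19, adjusted p = 0.00110 by edgeR, or −0.57 and not called with library totals). The ratio of *PLG* to *SERPINF2* inside a library, in CPM per kb, was 0.0178 to 0.115 in fusing and 0.000379 to 0.00314 in free libraries.

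*PLAU*, urokinase, which activates plasminogen at cell surfaces, had 16.1, 10.8, 10.6 and 11.1 CPM in fusing replicates 1 to 4 and 0.840, 1.08, 8.04 and 7.51 CPM in free replicates 1 to 4. All of the fusing libraries lay above the free ones, but the free libraries fell into a low pair and a high pair. It was not called (log2 fold change 1.5, SE 0.65, adjusted p = 0.0962 by edgeR), while DESeq2 (1.49, adjusted p = 0.0473), limma-voom (2.27, adjusted p = 0.0153) and edgeR without free replicate 3 (2.00) or with library totals (2.18) called it. *PLAT*, tissue plasminogen activator, averaged 12.1 ± 1.87 CPM in fusing and 11.3 ± 1.17 CPM in free discs (SD, n = 4 each; log2 fold change 0.10, adjusted p = 0.656 by edgeR). The ratio of *F10* to *F3* was 5.90 to 41.1 in fusing and 0.155 to 0.267 in free libraries. Its separation of the tissues follows from the levels already given. Every fusing library lay above every free library for *F10* and below every free library for *F3*. The same holds for *PLG* over *SERPINF2*.

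**Figure D3:**
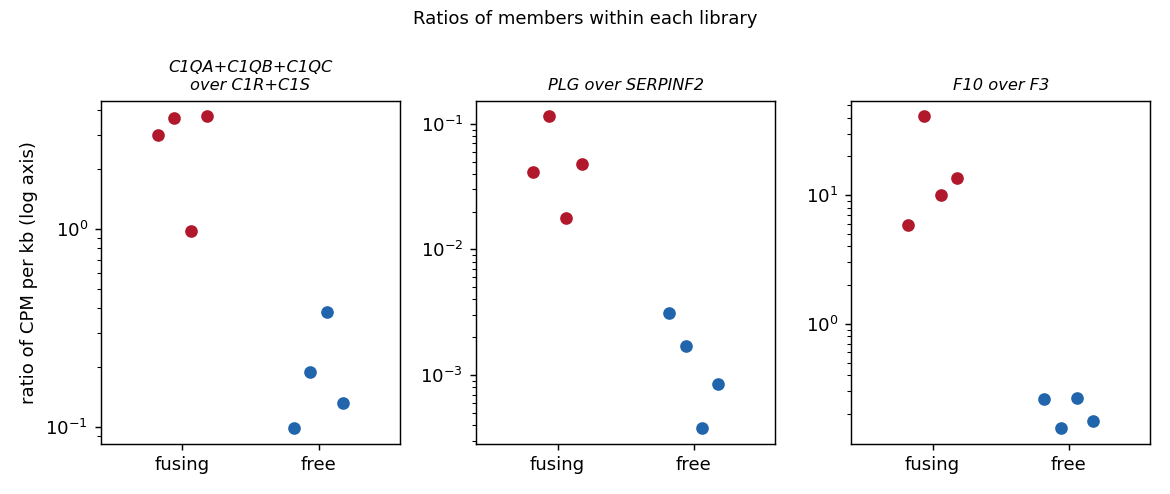
Ratios of members in CPM per kb, on log axes, are drawn for each library, with fusing replicates 1 to 4 at left and free replicates 1 to 4 at right. C1q over *C1R* plus *C1S*, *PLG* over *SERPINF2* and *F10* over *F3* are each higher in every fusing library than in any free library. For each ratio this follows from the levels of the genes, since numerator and denominator separate the tissues in opposite directions.

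The free discs were not uniform for several members. *VWF*, *PLAU* and *F2R* were each higher in free replicates 3 and 4 than in free replicates 1 and 2, and so was the summed level of 11 endothelial markers, at 540.4 and 496 CPM in free replicates 3 and 4 and 177.5 and 172.6 CPM in free replicates 1 and 2. The fusing libraries lay between them in the endothelial sum, at 256.8 to 299.4 CPM. The sums of other lists split the free discs in the same way. The osteoblast and osteocyte markers summed to 518.6 and 206.7 CPM in free replicates 3 and 4 and 136.1 and 20.8 CPM in free replicates 1 and 2. The osteoclast markers summed to 2308 and 1803 CPM and 1553 and 1381 CPM. The place of free replicate 4 above free replicate 1 in the osteoclast sum rested on *MMP9* alone. *MMP9* had 4.27, 16.4, 529 and 291 CPM in free replicates 1 to 4. *ACP5* was high in free replicate 3 alone, with 1.81, 1.27, 62.7 and 0.858 CPM, and *NFATC1* was lowest there. The chondrocyte sums were higher in free replicates 3 and 4 too, while the heterophil, thrombocyte and erythroid sums were lower there. Further members were also higher in free replicates 3 and 4 than in 1 and 2, among them *PROS1*, *F8*, *THBD* and *TFPI*. Others, among them *CD55*, *VTN* and *F3*, were lower there. *C7* did not follow this split, since free replicate 2 alone was high. Nor did other members, among them *C1QA*, *SERPING1*, *F13A1* and *TFPI2*. The members named here were picked after their values were seen. The share of all genes that split the free discs in this way was not counted. The part of these cell types in the members' values was not tested.

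**Figure D4:**
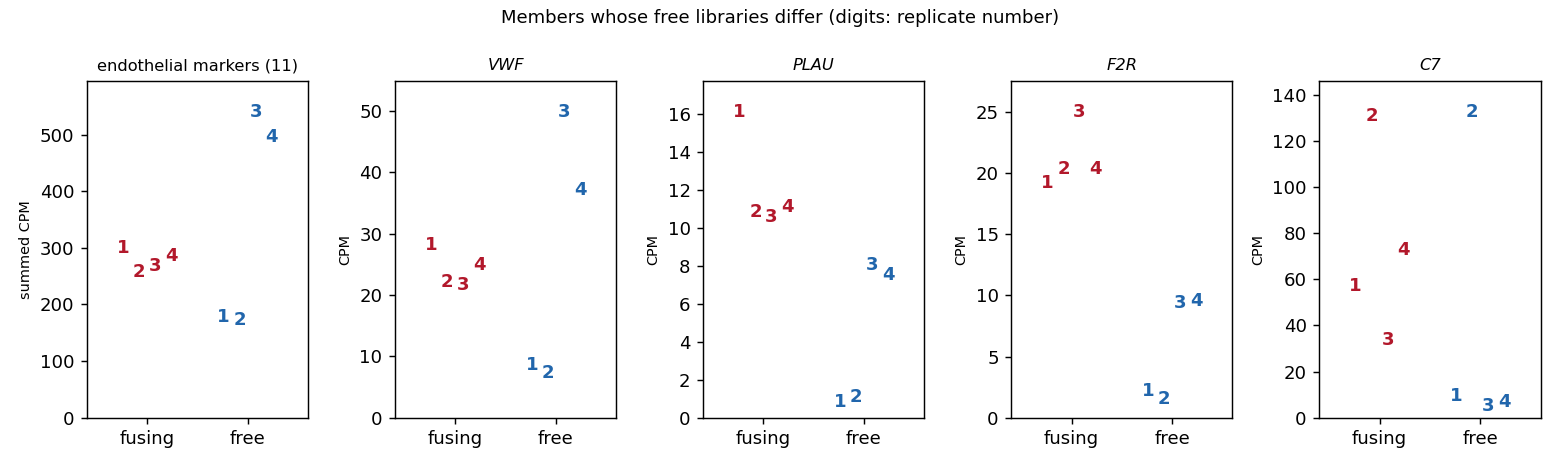
Summed CPM of 11 endothelial markers and CPM of *VWF*, *PLAU*, *F2R* and *C7* are shown with digits for the replicate number, fusing at left and free at right. Free replicates 3 and 4 stand above free replicates 1 and 2 in the endothelial sum, *VWF*, *PLAU* and *F2R*, and *C7* reaches 132.8 CPM only in free replicate 2 among the free discs.

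A further 59 genes of the same pathways were listed, of which 41 had a row and 36 were tested. Calls were made for 14 that were higher and 3 that were lower in fusing discs (38.9% and 8.33%), against 13.2% and 9.64% of all tested genes, and the median of the 36 was 0.48 on the log2 scale. *ITGB2*, the beta chain of complement receptor 3 on leukocytes, had a log2 fold change of 3.07 (adjusted p = 0.000271 by edgeR), and *VSIG4*, a macrophage receptor for C3b, one of 2.40 (adjusted p = 0.00138 by edgeR). The genes named *C4* and *C4A* were both called higher, at log2 fold changes of 1.57 and 2.04 by edgeR, the second reaching 2.99 without free replicate 3. With the title codes as a block, which leaves out fusing replicate 2 and free replicate 3, the call of *C4* was lost (1.19, adjusted p = 0.0867 by edgeR).

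Other called genes of this list were the regulators *CR1L* (log2 fold change 1.39 by edgeR) and *SUSD4* (1.23), and the collectin *COLEC12* (1.52), a scavenger receptor, all higher in fusing discs. *COLEC10*, a soluble collectin of the lectin pathway, was lower (−1.72), as was the thrombin receptor gene *F2RL3* (−1.27). *SERPINE2*, protease nexin 1, which inhibits thrombin and urokinase, was abundant in both tissues, averaging 755 ± 154 CPM in fusing and 1593 ± 200.3 CPM in free discs (SD, n = 4 each; log2 fold change −1.08 by edgeR), and its call was lost with upper-quartile scaling (−0.98) or library totals (−0.38). *C4BPA*, which lies in a cluster with *CD55* and *CR1L*, averaged 97.6 ± 22.2 CPM in fusing and 90.8 ± 20.4 CPM in free discs and was not called (log2 fold change 0.10). The call of *SUSD4* was lost without free replicate 2 (1.07), free replicate 4 (0.99) or fusing replicate 1 (1.1), and that of *F2RL3* without free replicate 2 (−0.98) or with library totals (−0.58).

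Adjacent genes did not always move together. The C1q chains, *C1R* with *C1S*, *F7* with *F10*, and *CD55* with *CR1L*, which lies 570 bases away, each changed in 1 direction. *SERPINF2* and *SERPINF1*, which encodes a serpin that inhibits no protease, are 1752 bases apart on chromosome 19 and went opposite ways, at log2 fold changes of −1.25 and 1.20 by edgeR. The call of *SERPINF1* was lost without free replicate 1 (1.1) or 2 (0.99) and without fusing replicate 2 (1.05) or 4 (1.11). *F2R* was called higher with *F2RL2* (2.57), which lies 36453 bases away, while *F2RL1*, 22449 bases from *F2R*, was not called (−0.84).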

How the data were processed

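RNA from 4 fusing pygostyle and 4 free caudal disc libraries was sequenced by the authors from poly(A)-selected, unstranded libraries, aligned with STAR to GRCg6a and counted per gene with featureCounts, leaving out reads that matched several genes. The deposited values are raw counts, with 24154 genes and 5682402 to 18434459 reads per library. A deposited table of the authors' own DESeq2 comparison (mean normalized counts, fold changes and p-values) was not used.

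The counts were tested with edgeR 4.0.16 in R 4.3.3 (TMM scaling, filterByExpr at a minimum count of 10 and a minimum total of 15, quasi-likelihood test, group as the only term), and p-values were adjusted by Benjamini and Hochberg over 13639 genes. Calls needed both an adjusted p-value under 0.05 and a log2 fold change beyond 1 in size. CPM are counts over the TMM-scaled library size, and CPM per kb divide them by the exonic length. The SE of a log2 fold change was its size over the square root of the F statistic. Ratios of summed counts have exact 95% intervals that cover counting error only. The fit was tested on simulated data with known changes.

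Members and lists were chosen with earlier results of these data known. Full values are given for called members averaging at least 5 CPM and uncalled members averaging at least 20 CPM, and called genes of the wider list are named at 5 CPM or more. Other members named were chosen after their values were seen. Alternatives were DESeq2 1.42.0, limma-voom 3.58.1, other scalings and filters, blocks, a W-linked term and leaving out each library. Libraries with the same replicate number deviated together (correlations of 0.26, 0.17, 0.12 and 0.25 for numbers 1 to 4), which is taken from the data and not from the labels. Some libraries of different numbers did so as much (0.18 for fusing replicate 1 with free replicate 3, and 0.14 for fusing replicate 3 with free replicate 4), and the replicate 3 libraries differed in W-linked transcripts, so at least that pair is not from a single bird. Among the libraries that share a title code the correlations were 0.26 (code 12), −0.07 (code 10) and 0.25 (code 8), and W-linked transcripts were alike within each code. The replicates of a tissue differed by far more than counting error. The labels do not say whether a title code is a bird, so p-values measure the spread between these libraries. Chromosome names were assigned by matching gene symbols to the RefSeq annotation of GRCg7b, and all positions are those of GRCg6a as deposited. A gene of the wider list is counted but not reported by name here.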

Additional observations from a re-analysis of the deposited data

Results flagged for a closer look

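In 5 of 70 groups of 4 libraries checked, the highest or lowest library stood apart from the other 3, where chance gives about 1 in 20. *C7* had 132.8 CPM in free replicate 2, against 5.04 to 9.57 CPM in the other free libraries. *F5* had 1.54 CPM in free replicate 2, against 7.94 to 8.04 CPM in the other free libraries. *SERPIND1* had 5.17 CPM in fusing replicate 4, against 2.93 to 3.29 CPM in the other fusing libraries. *PLAU* had 16.1 CPM in fusing replicate 1, against 10.6 to 11.1 CPM in the other fusing libraries. *SERPINF2* had 46.2 CPM in fusing replicate 2, against 81.3 to 86.3 CPM in the other fusing libraries.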

How the results depend on the processing

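Of the 18 called members, 13 were called under all 18 alternatives. Library totals gave 20 members higher and 2 lower, 1 other pathway gene lower, and 4179 genes higher and 624 lower of all tested. Calls at any fold gave 6 other pathway genes lower and 2680 genes lower of all tested. Without a filter 2 members (*FGA* and *C8A*, with no reads) had no test. Leaving out each library gave 12 to 14 members higher and 5 to 6 lower, 11 to 16 other pathway genes higher and 3 to 4 lower, and 1589 to 1986 genes higher and 1225 to 1483 lower of all tested. With the replicate number as a block 13 members were higher and 6 lower, and apart from *C7* the block changed no member's call. The W-linked term was added after the data had been seen.

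Signs turned only in members that were not called, and the cause was not tested. *MASP1* had a log2 fold change of 0.54 with library totals, 0.20 with limma-voom, 0.13 with the replicate block and −0.42 to 0.68 without single libraries. *F2* had 0.57 with library totals and −0.39 to 0.067 without single libraries. *F5* had 0.55 with library totals, 0.10 with limma-voom, 0.23 with the sample code number as a block, 0.075 with the W-linked term and −0.46 to 0.040 without single libraries. *VWF* had 0.011 with upper-quartile scaling, 0.59 with library totals, 0.47 with limma-voom, 0.34 with the replicate block, 0.89 with the code number block, 0.018 with the W-linked term and −0.40 to 0.47 without single libraries. The code number block, which compares only the libraries that share a title code, ended the calls of *CD55* (0.85) and *C4* (1.19). Upper-quartile scaling ended those of *C1R* (−0.94) and *SERPINE2* (−0.98).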

Other observations

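*MMRN1*, which encodes multimerin 1, a carrier of factor V in human platelets, had 4.21, 1.66, 0.761 and 1.49 CPM in fusing replicates 1 to 4 and 0.129, 20.3, 0.0884 and 0.107 CPM in free replicates 1 to 4. The high library, free replicate 2, was also the free library with the high *C7*, but this follows from how *MMRN1* was found. After *C7* had been seen, genes high in free replicate 2 were ranked by their excess over the other free libraries. *MMRN1* came top and *C7* next, followed by *GRM4*, *MOGL4* and *COL8A1*.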
